A study of Homo sapiens with 4 samples.

Results

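CDKN1A-high cells were the 10% of cells with the largest share of CDKN1A in each of 4 single-cell RNA libraries of MSTO-211H, an established line from a human pleural mesothelioma. In each library, cells with under 20% mitochondrial UMIs (unique molecular identifiers, the counted RNA molecules) were ranked by CDKN1A UMIs over total UMIs, and ties kept the order of the barcodes. This gave 1639 of 16400 cells, namely 318, 242, 380 and 699 of the 3183, 2425, 3802 and 6990 cells in the libraries named Control, Radiation, Drug and Drug_Radiation. Values for the libraries are given in this order throughout. The cells had grown in suspension, without serum and with EGF, bFGF and heparin, and the labels call them mesothelioma-initiating cells of WT genotype. Control received vehicle, Radiation 4 Gy, Drug 10 µM QTP, and Drug_Radiation both, and all were collected 48 h after irradiation. The series title places QTP under dopamine receptor inhibition. Each treatment had 1 library, made from pooled cells of 1 line, so the libraries do not replicate a treatment. They repeat the comparison of CDKN1A-high cells with the other 14761 cells, and each library gave 1 sum of UMIs for either side. The p-values below therefore concern this comparison over 4 libraries, or how it differed between 2 libraries with and 2 without radiation or QTP. Those of the gene tests rest on a variance estimated in part from all tested genes. Libraries with more UMIs also weigh more in them, from 942400 nuclear-encoded UMIs of CDKN1A-high cells in Control to 14451814 in Drug_Radiation. A very small p-value is thus no measure of how evenly the libraries agreed.

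CDKN1A encodes p21, an inhibitor of cyclin-dependent kinases. The transcription factor p53 switches the gene on after DNA damage and other stresses, along with genes for feedback on p53, repair, metabolism and cell death. Cells with p21 hold the RB family of proteins in their repressing form, and the genes of DNA replication and mitosis are then repressed.

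CDKN1A itself chose the cells and is given here as a description only. The last CDKN1A-high cell in Control had 3 CDKN1A UMIs of 5893 and the first cell outside had 5 of 9852. In Radiation these were 2 of 2516 and 4 of 5037, in Drug 13 of 19947 and 52 of 79815, and in Drug_Radiation 29 of 36300 and 22 of 27540. The class thus began at 5.09, 7.95, 6.52 and 7.99 CDKN1A UMIs per 10000 UMIs. Its median cell had 2, 6, 21 and 20 CDKN1A UMIs, against 0, 1, 4 and 6 in the other cells. In Control, 119 of the 318 CDKN1A-high cells had 1 CDKN1A UMI and 70.5% of all cells had none, so the class was drawn from far fewer molecules there than in Drug_Radiation, where 3.59% of cells had none. The same class was defined by different levels in each library, and levels are therefore compared within libraries.

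Depth of both sides was close except in Drug, where CDKN1A-high cells were deeper. The median CDKN1A-high cell had 2217.5, 5546.5, 24120 and 18868 UMIs, and the median other cell had 2326, 5292, 20148 and 17858. The comparison was for this reason repeated against 1 other cell per CDKN1A-high cell, nearest in total UMIs. Of the mesothelioma line markers, KRT18 stood at 2279 to 2982 CPM in CDKN1A-high cells and 2485 to 3368 CPM in the other cells. MSLN was low, with a mean over libraries of 11.9 CPM. WT1 (1.62 CPM), UPK3B (0.107 CPM) and KRT19 (0.233 CPM) were near 0 and thus almost absent from both sides. Calretinin (CALB2), from the same marker list, was present on both sides of every library, with a mean over libraries of 35.1 CPM. The 6 leukocyte markers summed to 23.8, 41.9, 36.1 and 39.9 CPM in CDKN1A-high cells and to 19.4, 44.5, 34.8 and 39.3 CPM in the others, nearly all of it CD68. The 3 endothelial markers reached at most 0.663 CPM in CDKN1A-high cells and 1.35 CPM in the others, and the 3 erythroid markers at most 3.57 and 2.86 CPM. No barcode was shared between libraries (0 barcodes).

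Across 4880 genes of at least 20 CPM, CDKN1A-high cells had more RNA of p53 target genes, of lysosomal genes and of HLA genes. They had less RNA of genes for mitosis, DNA replication, ribosomal proteins and glycolysis. Of the genes tested, 696 (14.3%) were higher and 799 (16.4%) lower at an adjusted p under 0.05 by edgeR's quasi-likelihood test with the library as a block. CPM here are UMIs per 1000000 nuclear-encoded UMIs after TMM scaling, with CDKN1A left out. In all 4 libraries 452 of the higher and 534 of the lower genes kept their sign. Most differences were small, and 19 genes rose by at least 0.5 and 21 fell by at least 0.5 on the log2 scale. Against depth-matched cells 414 (8.48%) were higher and 517 (10.6%) lower. Of these, 403 and 498 were called the same way against all other cells, which is 57.9% and 62.3% of the calls made there and 97.3% and 96.3% of the depth-matched ones, and 0 were called in opposite directions. Scaling to total UMIs without TMM moved the median of all genes by 0.057 and the share of calls that were higher from 46.6% to 75.4%. Without the library block 0 genes were called, without Drug 290 and 434, and without Drug_Radiation 385 and 478.

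The gene with the largest rise in CDKN1A-high cells was GDF15, a secreted stress cytokine and p53 target (ENSG00000130513, chromosome 19, 18374731 to 18389176 in GENCODE 29). In CDKN1A-high cells it stood at 283, 586, 500 and 870 CPM, against 136, 244, 195 and 328 CPM in the other cells. It was higher in CDKN1A-high cells of every library. The fitted difference was 1.35 ± 0.03 (SE, log2), a 2.55-fold higher level, with an adjusted p of 2.35e-35 by edgeR. Counting intervals at 95% ran from 0.84 to 1.26 in Control and from 1.38 to 1.44 in Drug_Radiation, and lay above 0 in every library.

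MDM2, the ubiquitin ligase that p53 induces and that degrades p53, had 108, 150, 112 and 162 CPM in CDKN1A-high cells and 65.6, 86.9, 56.9 and 100.3 CPM in the others. Its fitted difference was 0.81 ± 0.04 (SE) and was positive in 4 of 4 libraries. BTG2, an antiproliferative gene, had 26.2, 70.7, 45.3 and 53.3 CPM against 19.1, 41.1, 22 and 29.8 CPM, a difference of 0.90 ± 0.06 (SE). In Control it rested on 22 UMIs in CDKN1A-high cells, and the interval there ran from -0.27 to 1.11. SESN1, which restrains mTORC1, rose by 0.60 and its relative SESN2 by 0.53, although SESN2 in Radiation was at 17.8 CPM in CDKN1A-high cells and 21.2 CPM in the others.

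All 16 tested genes of the list for p53-driven arrest and feedback were higher, with a median of 0.39, where the median of all genes was -0.00033. The smallest rises were those of CCNG1 (0.12) and RPS27L (0.13), a p53-induced ribosomal protein paralogue. GADD45A, which acts in the damage response, rose by 0.54, PLK2, a stress-induced kinase, by 0.25, and ZMAT3, an RNA-binding p53 target, by 0.23. Among 9 tested death genes 8 were higher, 6 at matched depth and 5 without Drug. FDXR, the mitochondrial ferredoxin reductase, rose by 0.63 ± 0.05 (SE), AEN, a nuclease of apoptosis, by 0.51, PMAIP1 (NOXA) by 0.27 and BAX by 0.17. BAX was lower in CDKN1A-high cells of Control (109 CPM against 116 CPM) and missed the threshold without Drug (0.12). PERP, at 0.08, missed it at matched depth and without each library except Radiation.

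Repair and metabolism genes of the p53 programme moved less evenly. In the list for DNA repair and nucleotides, 3 of 5 tested genes rose: RRM2B, the p53-induced ribonucleotide reductase subunit (0.43), and the nucleotide excision repair genes XPC (0.40) and DDB2 (0.33). Of 14 tested genes for metabolism and other functions 10 rose, among them ANKRA2 (0.56) and the fructose bisphosphatase TIGAR (0.48). Over all 4 p53 lists, 35 of 42 tested genes were called higher and 1 lower, and 27 were higher in every library, with 33 called higher and 0 lower at matched depth.

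Several p53 targets were below 20 CPM and were tested only with the threshold at 5 CPM, where 9834 genes entered and 8.07% were called higher and 10.4% lower. TP53I3, an oxidoreductase gene induced by p53, then had 16.7, 34.3, 22.6 and 33.6 CPM in CDKN1A-high cells against 14.6, 16.5, 9.17 and 14 CPM, a difference of 1.22 ± 0.08 (SE). BBC3 (PUMA) rose by 0.56, the death receptor FAS by 0.48, the phosphatase PPM1D by 0.70 and TP53INP1 by 0.61. In Control and Radiation FAS was lower in CDKN1A-high cells, at 10.7 and 18.5 CPM against 14.6 and 19.8 CPM.

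Other genes among the 12 highest of 1 sign in all 4 libraries were not in the p53 lists. DDIT3 (CHOP), a transcription factor of the integrated stress response, had 64.2, 79.6, 112 and 115 CPM against 46.2, 50, 73 and 68 CPM and rose by 0.68 ± 0.04 (SE). CYB5A, a cytochrome b5, rose by 0.68, RND3, an atypical small GTPase, by 0.66, PPP1R15A (GADD34), which reverses eIF2 phosphorylation, by 0.61, the carboxylesterase CES2 by 0.59 and the adhesion molecule ICAM1 by 0.58. PINCR, a long noncoding RNA chosen for mention after its values were seen, rose by 0.51. It was also higher in 4 of 4 libraries, while for the other genes named here that was a condition of being chosen.

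**Figure D1:**
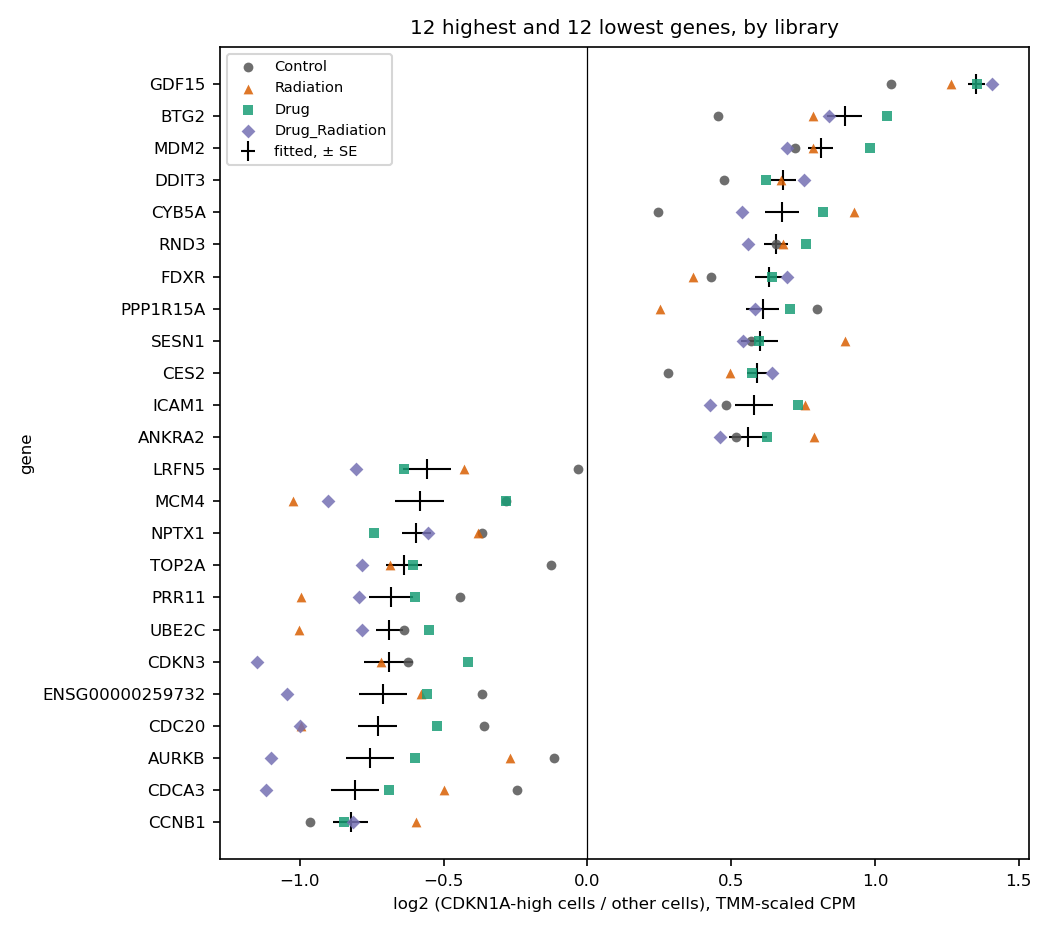
Log2 ratio of TMM-scaled CPM in CDKN1A-high cells over other cells (x axis) for the 12 highest and 12 lowest called genes among those of 1 sign in all 4 libraries (y axis), with 1 coloured point per library and the fitted value ± SE in black. GDF15 lies furthest to the right at 1.35 and CCNB1 furthest to the left at -0.82, and that all points of a gene share a sign follows from how the genes were chosen.

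Genes of mitosis formed most of the other end. CCNB1, the cyclin that drives entry into mitosis (chromosome 5, 69167010 to 69178245 in GENCODE 29), had 38.1, 30.2, 32 and 21.4 CPM in CDKN1A-high cells and 74.3, 45.7, 57.6 and 37.8 CPM in the others. It was lower in CDKN1A-high cells of every library, and fell by 0.82 ± 0.06 (SE, log2) with an adjusted p of 1.27e-14 by edgeR. CDCA3, which triggers mitotic entry, had 32.1, 16.5, 19 and 9.52 CPM against 38.1, 23.3, 30.6 and 20.7 CPM and fell by 0.81. AURKB, the kinase of the chromosomal passenger complex, had 30.9, 22, 23.3 and 13.7 CPM against 33.6, 26.5, 35.3 and 29.3 CPM and fell by 0.76, with a difference in Control of -0.12 and in Drug_Radiation of -1.10. CDC20, the activator of the anaphase-promoting complex, had 53.5, 29.5, 40.5 and 19.8 CPM against 68.8, 58.9, 58.2 and 39.7 CPM and fell by 0.73. Of 22 tested genes of the G2 and M list 19 were called lower and 0 higher, with a median of -0.47. In single cells the median share of UMIs from the list was not lower in Control (0.0738% against 0.0701%) or Drug (0.0997% against 0.0995%). In Radiation it was (0.0604% against 0.0763%). At the 90th percentile the shares were 0.431%, 0.164% and 0.416% against 0.523%, 0.282% and 0.555% in Control, Radiation and Drug. UBE2C and CDKN3 fell by 0.69 each, TOP2A by 0.64, CDK1 by 0.62 and BIRC5 (survivin) by 0.55. CDK1 was slightly higher in CDKN1A-high cells of Control, at 46.4 CPM against 43.3 CPM. MKI67, below 20 CPM, fell by 0.83 with the threshold at 5 CPM, and in Radiation it had 0 UMIs in CDKN1A-high cells.

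The promoters of the 4 mitotic genes with the lowest values are shown because genes of this class often carry a CCAAT box and a cell cycle homology region (CHR), the element bound by the complex that represses them in arrested cells. The sequences run 5′ to 3′ on the gene's strand from 170 bases before to 25 bases after the annotated start, and come from RefSeq on GRCh38.p14. Capitals mark CCAAT on either strand and the CHR letters TTTGAA or TTCGAA on either strand. The positions are chr5:69166980-69167174 on the plus strand for CCNB1, chr12:6851262-6851456 on the minus strand for CDCA3, chr17:8210201-8210395 on the minus strand for AURKB and chr1:43358811-43359005 on the plus strand for CDC20.
CCNB1: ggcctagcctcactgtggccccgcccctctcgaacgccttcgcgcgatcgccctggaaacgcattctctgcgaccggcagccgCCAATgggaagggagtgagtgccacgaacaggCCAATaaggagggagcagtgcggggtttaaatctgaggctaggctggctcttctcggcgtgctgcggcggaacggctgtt
CDCA3: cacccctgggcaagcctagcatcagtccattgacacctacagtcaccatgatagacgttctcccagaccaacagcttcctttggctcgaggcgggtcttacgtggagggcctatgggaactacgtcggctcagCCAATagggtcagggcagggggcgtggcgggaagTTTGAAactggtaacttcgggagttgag
AURKB: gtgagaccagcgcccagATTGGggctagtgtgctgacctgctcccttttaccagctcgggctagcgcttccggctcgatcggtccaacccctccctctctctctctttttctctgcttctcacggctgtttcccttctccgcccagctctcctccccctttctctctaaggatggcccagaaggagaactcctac
CDC20: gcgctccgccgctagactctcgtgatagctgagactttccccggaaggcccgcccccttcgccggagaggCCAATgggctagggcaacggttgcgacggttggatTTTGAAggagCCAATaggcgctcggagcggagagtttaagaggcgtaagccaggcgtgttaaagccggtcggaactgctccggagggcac

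CDCA3 and CDC20 held CCAAT and the searched CHR letters in this window, while CCNB1 and AURKB held CCAAT only. Other spellings of the CHR were not searched, and only the first listed start of each gene was used. The AURKB start used lies next to an atg. The windows therefore do not show that CCNB1 or AURKB lacks a CHR. In CDC20 the CHR letters stood at -65 between CCAAT boxes at -100 and -55, and in CDCA3 at -3 with a CCAAT box at -37, counted from the annotated start. Over windows from 250 bases before to 50 after the start, 12 of 19 tested G2 and M genes with a promoter entry held the CHR letters (63.2%), against 10.8% of all tested genes and 16.6% of all 27305 promoters. CCAAT was in 16 of these 19 (84.2%), against 38.2% of tested genes and 35.7% of all promoters. Median GC content was 57.3% in the G2 and M windows and 64.7% in those of all tested genes. The p53 half-site consensus was found in 4 of 29 windows of p53 targets (13.8%), in 5.44% of those of tested genes and in 6.54% of all, and in neither the GDF15 nor the BTG2 window. Lists that were lower held it too, in 8 of 62 windows of ribosomal protein genes (12.9%), 4 of 16 of S phase genes (25%) and 1 of 19 of G2 and M genes (5.26%). Promoter entries matched 4004 of the 4880 tested genes, motifs were searched separately so that matches may overlap, and a match of letters is not a measured binding site.

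Most replication genes were lower as well, and 1 was higher. Of 20 tested S phase genes 18 were called lower, 1 higher and 1 not called, with a median of -0.33. In every library 11 were lower, and the median in Control was -0.10. MCM4, a subunit of the replicative helicase, had 21.4, 14.4, 24.2 and 12.9 CPM in CDKN1A-high cells against 26, 29.3, 29.5 and 24 CPM and fell by 0.58. Thymidine kinase TK1 fell by 0.54, MCM3 by 0.43 and thymidylate synthase TYMS by 0.41. PCNA, the sliding clamp of replication and also a p53 target, was the gene called higher, with 427, 378, 260 and 273 CPM against 399, 350, 240 and 245 CPM. It rose by 0.13 ± 0.03 (SE, adjusted p = 0.00028 by edgeR) in 4 of 4 libraries. Without Drug_Radiation 9 S phase genes were called lower, and 12 at matched depth. CCNE2, tested only from 5 CPM, fell by 0.81 with 11.9 CPM against 9.18 CPM in Control and lower values than the other cells in the remaining libraries.

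Regulators of G1 did not move as a group. Among 8 tested D cyclins, their kinases and inhibitors, CCND2 rose by 0.49, with 30.9, 37.1, 32 and 26 CPM against 20.3, 19.5, 19.8 and 22.4 CPM. CDKN1B (p27) rose by 0.24, but was lower in CDKN1A-high cells of Control and Radiation, was not called at matched depth and was lost without Drug (0.13) and without Drug_Radiation (0.25). CCND1 was at 0.09 and CDK4 at -0.02 and neither was called. In the recombination and Fanconi list, UBE2T fell by 0.41 and FANCL by 0.21, and RAD51C rose by 0.22, a call lost without Drug, without Drug_Radiation and at matched depth, where FANCL was not called either. NPTX1, a neuronal pentraxin, and LRFN5, a synaptic adhesion gene, were also among the 12 lowest of 1 sign in all 4 libraries, at -0.59 and -0.56, as were PRR11, a mitotic gene (-0.68), and the unnamed gene ENSG00000259732 (-0.71).

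The share of cells with many S phase or G2 and M transcripts was small in both classes, and at a threshold of 1% of UMIs it was lower among CDKN1A-high cells in each library. Cells in which S phase genes, or G2 and M genes, made up at least 1% of UMIs were 3.14% of CDKN1A-high cells in Control (95% Clopper-Pearson interval 1.52 to 5.71) and 0.826% in Radiation (0.10 to 2.95). They were 2.11% in Drug (0.913 to 4.11) and 0.858% in Drug_Radiation (0.316 to 1.86). Among the other cells the shares were 4.01%, 2.79%, 5.06% and 1.65%. Nearly all of these cells passed by G2 and M genes. S phase genes reached 1% of UMIs in 1, 0, 0 and 0 CDKN1A-high cells and in 2, 2, 0 and 1 other cells, too few to compare. The share was lower in 4 of 4 libraries, by 1.65 percentage points on average, with p = 0.13 in a two-sided exact sign-flip permutation test, the smallest p that 4 libraries allow. With each cell thinned to 1000 UMIs the shares were 3.46%, 1.65%, 3.16% and 0.858% against 4.85%, 4.12%, 5.93% and 2.18%. At a threshold of 2% too few cells remained to compare: the mean difference was -0.048 percentage points (p = 0.5, same exact permutation test), and after thinning Drug_Radiation was higher in CDKN1A-high cells (0.143% against 0.0954%).

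**Figure D2:**
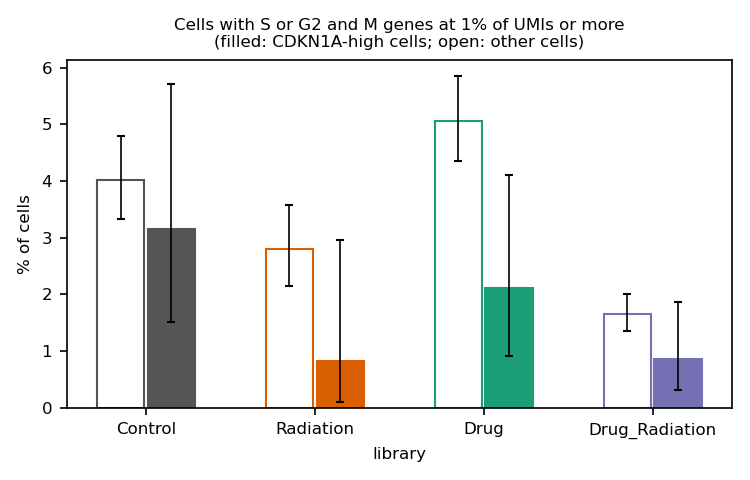
Percent of cells in which S phase genes, or G2 and M genes, made up at least 1% of UMIs (y axis) by library (x axis), with filled bars for CDKN1A-high cells, open bars for other cells and 95% Clopper-Pearson intervals for counting error. The filled bar is lower in all 4 libraries, and the intervals of both sides overlap in Control, Radiation and Drug_Radiation. Nearly all cells counted passed by G2 and M genes.

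The whole set of cytosolic ribosomal protein genes was lower in CDKN1A-high cells. All 78 were called lower, all 78 were lower in every library and all 78 were called at matched depth, with a median of -0.17 and a range from -0.22 to -0.07. Their summed level was 383910, 315501, 209457 and 288534 CPM in CDKN1A-high cells and 445675, 347081, 241886 and 316124 CPM in the others. RPS21, with the largest fall (0.22), had 6980, 5123, 3246 and 5060 CPM against 8379, 5859, 3917 and 5707 CPM. As these genes hold so much of each sum, scaling affects them, and 75 were called lower with total UMIs and no TMM. They also count in the total UMIs of the rule, so a cell with less of their RNA ranks higher at the same CDKN1A count. Matching on total UMIs does not remove this, and its part in the fall was not tested. Ribosomal protein genes have many near-identical copies in the genome, and how reads were shared out between copies was not stated.

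Lysosomal genes were higher. Of 30 tested, 20 were called higher and 0 lower, with a median of 0.15. SQSTM1 (p62), an autophagy receptor, had 370, 454, 547 and 552 CPM in CDKN1A-high cells against 353, 334, 415 and 410 CPM and rose by 0.39. The sialidase NEU1 rose by 0.36 but was lower in CDKN1A-high cells of Control (29.7 CPM against 36.4 CPM), and the cathepsins CTSB, CTSL and CTSD rose by 0.25, 0.24 and 0.20. At matched depth 18 were called higher, and without Drug 13.

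In the antigen presentation list 11 of 15 tested genes were higher and 0 lower. At matched depth 8 were higher and 1 lower, and without Drug 7 were higher. The peptide transporter TAP1 rose by 0.34 and the class I gene HLA-B, named after its values were seen, had 2659, 3592, 2293 and 3129 CPM against 2377, 3120, 1996 and 2675 CPM (0.20 ± 0.03, SE). HLA-E, HLA-C and HLA-F were called higher as well, at 0.20, 0.19 and 0.17, and B2M, the shared light chain, at 0.09, which was lost without Radiation (0.08). HLA genes are near-identical paralogues, so the split of reads between them is uncertain.

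Stress response genes were divided within their lists. In the integrated stress response list 9 of 22 tested genes were higher and 2 lower, with a median of 0.07. DDIT3, PPP1R15A and SESN2 led, followed by the cystine transporter subunits SLC7A11 (0.42) and SLC3A2 (0.34), while the transcription factor ATF4 (-0.05) was not called. ATF3, tested from 5 CPM, had 20.2, 15.1, 26.2 and 21.6 CPM against 6.77, 11, 9.89 and 10.9 CPM, a difference of 1.16 ± 0.09 (SE). Of 16 tested immediate early genes 9 were higher and 0 lower. BTG2 is in that list too, followed by IER3 (0.44), CCN1 (0.35) and EGR1 (0.28), whereas MYC (-0.03) and JUN (0.03) were not called. In the NRF2 list 7 of 15 were higher, among them the ferritin light chain FTL (0.32), with 5975, 7826, 5556 and 7244 CPM against 5259, 6563, 4135 and 5680 CPM.

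The lists that follow stand beside 14.3% of all tested genes called higher and 16.4% lower (8.48% and 10.6% at matched depth). Their counts of falls for heat shock, YAP and TEAD and matrix genes lie near that 16.4%. Endoplasmic reticulum chaperones showed small rises in 5 of 16 tested genes and a fall in 1 (MANF, -0.18). The 5 became 2 without Drug and 3 without Drug_Radiation, and the fall was called in neither of these nor at matched depth. The rises included CALR (0.25) and HSPA5 (0.19), and PPIB was at 0.01. Cytosolic and mitochondrial heat shock genes were mostly not called, with 1 of 17 higher and 3 lower (HSPD1 -0.16, HSPE1 -0.12, HSPA8 -0.11), and the rise was lost at matched depth and without each library except Radiation. HSP90AB1 was at 0.01. In the BCL2 family 3 of 8 rose, and these were BCL2L1 (0.35), the antiapoptotic BCL-XL gene, with PMAIP1 and BAX. BID was not called (-0.08). Among YAP and TEAD targets 5 of 14 rose, with FSTL1 at 0.40, and 2 fell. Without Drug 2 rose and 0 fell, FSTL1 (0.24) was not called, and 1 fell at matched depth, without Radiation and without Drug_Radiation. In the matrix list 7 of 22 rose, led by CCN1, and 4 fell (2 without Drug or without Drug_Radiation), led by LOX (-0.33), while TIMP1 was at 0.01. Of 6 tested nuclear-retained RNAs 2 rose, MEG3 (0.32) and MALAT1 (0.07), and OIP5-AS1 fell by 0.20. The call of MALAT1 was lost without each library in turn, and that of OIP5-AS1 at matched depth, without Drug and without Drug_Radiation.

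Genes of glycolysis and lipid synthesis were lower in part. Of 25 tested hypoxia and glycolysis genes 16 were lower and 0 higher, with a median of -0.10. The fall depended in part on scaling, as 11 were called lower with total UMIs and no TMM. As a mean share of all UMIs per cell, the listed genes were slightly higher in CDKN1A-high cells of Control (1.04% against 1.02%). In Radiation they were lower (1.41% against 1.47%). PFKFB4, a regulator of glycolysis, fell by 0.46, CA9, a carbonic anhydrase induced by hypoxia, by 0.35, and VEGFA, the angiogenic factor, by 0.26. CA9 had 25, 54.9, 55.1 and 51.1 CPM in CDKN1A-high cells and 40.9, 80.8, 68.9 and 63.4 CPM in the others. GAPDH fell by 0.14 from 5716, 5803, 4700 and 5755 CPM in the other cells. Lipid synthesis genes were lower in part, with 6 of 10 fatty acid genes and 11 of 21 cholesterol genes called lower and 0 higher in either list. The desaturase SCD had 106, 71.4, 198 and 202 CPM against 122, 98.5, 266 and 249 CPM and fell by 0.36, and FASN (-0.26) was higher in CDKN1A-high cells of Control and lost its call at matched depth and without Drug. At matched depth 2 fatty acid genes and 5 cholesterol genes were called lower, without Drug 2 and 6, and without Drug_Radiation 2 fatty acid genes, with 1 cholesterol gene higher. Of 56 respiratory chain genes 16 were lower and 1 higher, a direction that depended on scaling, since 13 were higher and 5 lower with total UMIs and no TMM. The metallothioneins MT1X and MT2A fell by 0.41 and 0.20. Among mesothelioma line markers calretinin (CALB2) fell by 0.54 and KRT18 by 0.12, VIM was at -0.04, and CALB2 was higher in CDKN1A-high cells of Control (36.9 CPM against 32.5 CPM).

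**Figure D3:**
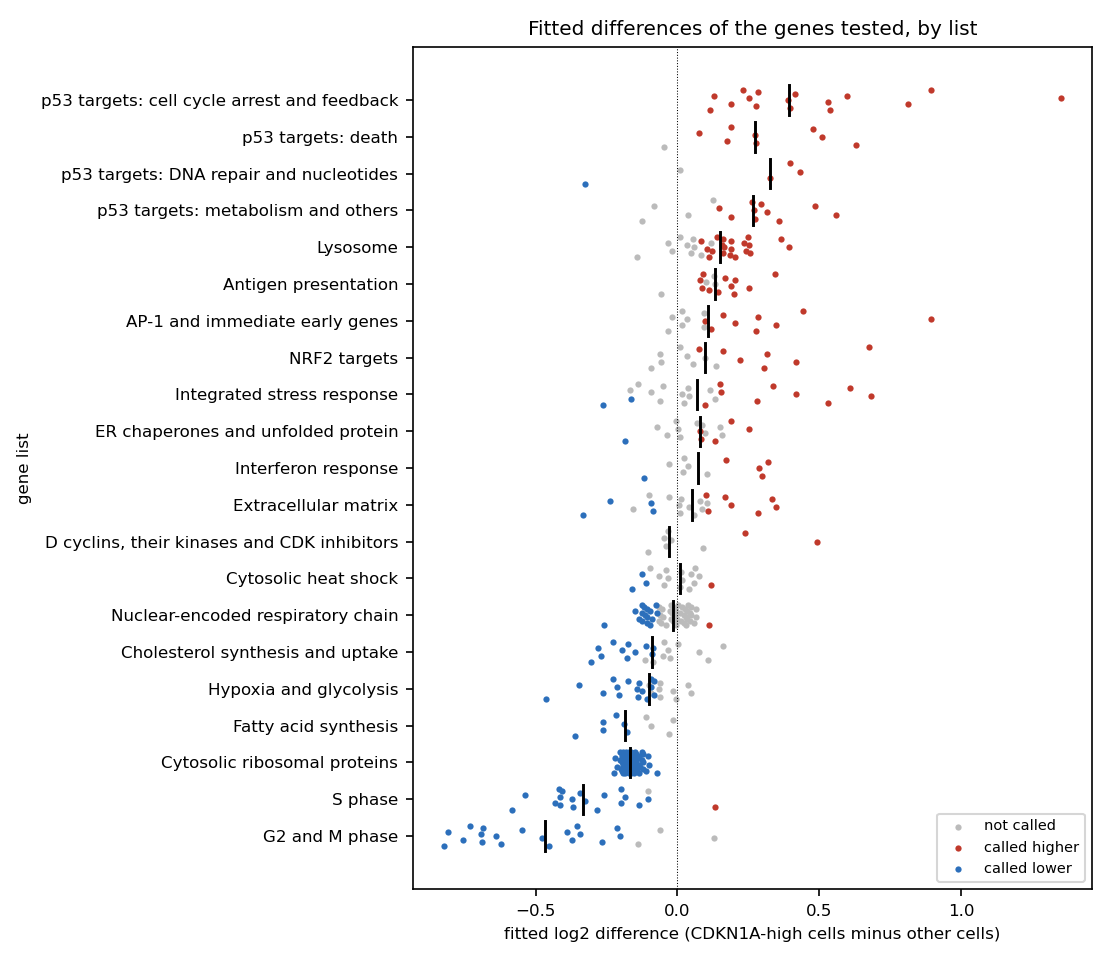
Fitted log2 difference of CDKN1A-high cells minus other cells (x axis) for each tested gene (points) of 21 gene lists (y axis), with called genes in red (higher) or blue (lower) and the median of the list as a black bar. The p53 lists stand to the right and the G2 and M list furthest to the left, while the 78 ribosomal protein genes lie between -0.22 and -0.07.

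Several levels changed step by step with CDKN1A rank, while others did so in 3 of 4 libraries. From cells ranked in the lower 50% over those at 20 to 50% and 10 to 20% to the top 10%, GDF15, MDM2 and the sum of the p53 lists rose at each step in 4 of 4 libraries. GDF15 in the top 10% was 2.45, 3.2, 3.51 and 3.52 times its level in the lower 50%, and cells at 10 to 20% were at 1.54, 1.98, 1.97 and 2.03 times. CCNB1 fell at each step in 4 of 4 libraries, to 0.483, 0.605, 0.470 and 0.502 times its level in the lower 50%. The ribosomal protein sum and the hypoxia sum also fell at each step in 4 of 4 libraries, the G2 and M sum in 3 and the S phase sum in 1. BTG2, FDXR, DDIT3 and UBE2C were in order in the 3 libraries other than Control, where DDIT3 at 10 to 20% stood at 0.759 times its level in the lower 50%. In Control all cells of the lower 50% and 68.3% of those at 20 to 50% had no CDKN1A UMI and stood in barcode order, so these groups were not ranked by level there. Median depth was 2044 UMIs in the lower 50% of Control and 2994.5 at 10 to 20%, and 16191 and 19505 in Drug_Radiation. The part of depth in the steps was not tested, nor was that of the ribosomal protein share of total UMIs.

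**Figure D4:**
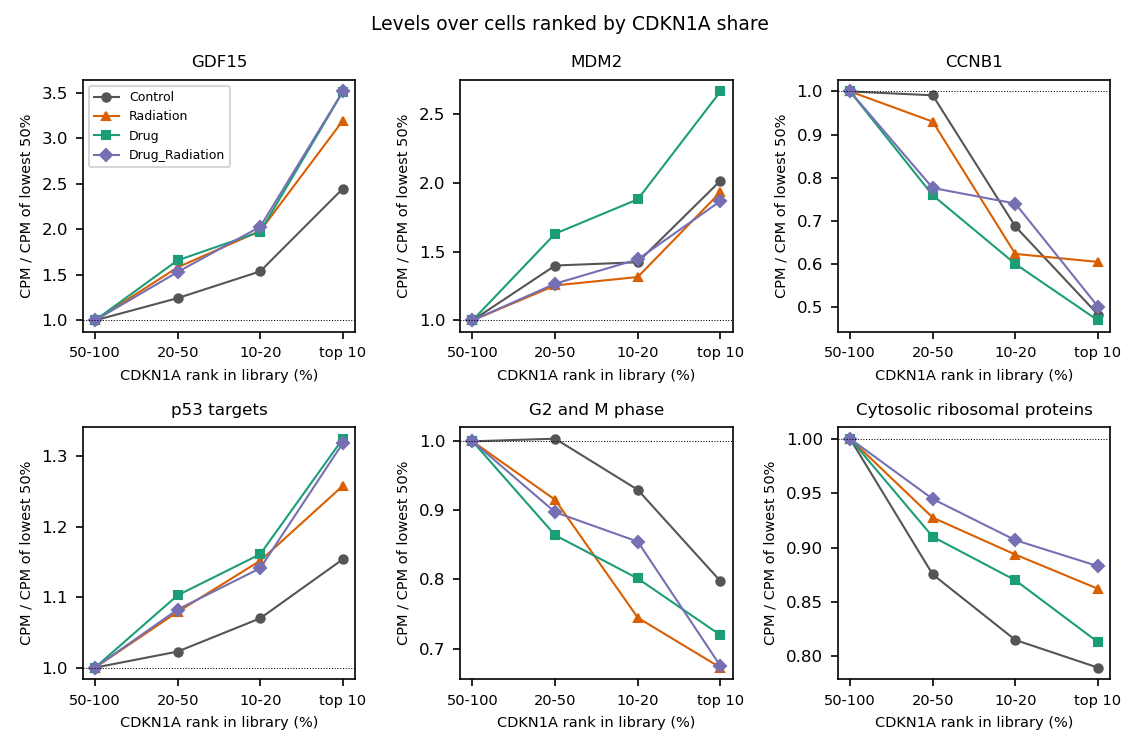
Level of 3 genes and 3 list sums (CPM relative to the lower 50% of cells, y axis) over cells ranked by CDKN1A share (x axis, top 10% at the right), with 1 line per library. GDF15 reaches 2.45 to 3.52 times and CCNB1 0.470 to 0.605 times its level in the lower 50%, and the ribosomal protein sum falls to between 0.790 and 0.883 times.

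The comparison of CDKN1A-high with other cells differed with radiation for 60 genes (1.23% of those tested), in a test of class by radiation with 2 libraries on either side, and 338 genes had an unadjusted p under 0.05. The class began at 7.95 and 7.99 CDKN1A UMIs per 10000 in Radiation and Drug_Radiation, and at 5.09 and 6.52 in Control and Drug. Radiation and the level that defined the class thus cannot be told apart in this test. The difference was higher with radiation for 39 genes, of which 27 were ribosomal protein genes, and lower for 21. At matched depth 14 genes were called and 11 of them were among the 60. Without Drug_Radiation 18 were called and without Control 28.

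ISG15, an interferon-stimulated ubiquitin-like gene, was higher in CDKN1A-high cells without radiation, at 205 CPM against 107 in Control and 123 against 79 in Drug. In Radiation it had 87.9 CPM against 98 and in Drug_Radiation 103 against 107. The difference with radiation was -0.77 ± 0.09 (SE) with an adjusted p of 5.89e-08 by edgeR, and -0.51 at matched depth, where it was also called. The fitted value of ISG15 over all libraries (0.30) lost its call without Drug (0.10). CCL5, a chemokine, showed the same order, with 46.4 and 57.7 CPM against 28.6 and 27.7 CPM in Control and Drug, and 16.5 and 29 CPM against 21.1 and 35.2 CPM in Radiation and Drug_Radiation. Its difference with radiation was -1.31 ± 0.12 (SE), but -0.49 at matched depth (adjusted p = 0.39 by edgeR), and its fitted value over all libraries turned from 0.39 to -0.18 without Drug. In the interferon list 4 of 10 tested genes were higher (1 without Drug) and 1 lower, with IFI6 (0.32) and STAT2 (0.29) higher besides ISG15 and IFITM3 at 0.02. IL32, a cytokine gene, fell by 0.07, a call lost at matched depth, with total UMIs and no TMM, and without each library except Drug_Radiation.

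TK1, RRM2 and MCM4 were the 3 tested S phase genes whose comparison was lower with radiation. TK1 had 16.5 and 16.2 CPM in Radiation and Drug_Radiation against 35.1 and 32.9 CPM in the other cells, while in Control and Drug it had 34.5 and 43.4 CPM against 45.2 and 47.8 CPM. The difference with radiation was -0.86 ± 0.14 (SE), called also at matched depth (-1.0), and not without Drug (-0.65) or without Drug_Radiation (-0.92). RRM2, a ribonucleotide reductase subunit named after its values were seen, fell to 16.6 CPM against 35.9 in Drug_Radiation but had 37.8 against 36.2 in Radiation, and its difference of -0.85 became 0.0998 without Drug_Radiation. Its fitted value over all libraries (-0.42) was not called without Drug_Radiation (-0.04). DKK1, a secreted WNT inhibitor, moved the other way, with 853 CPM against 882 in Control, 682 against 594 in Drug, 1117 against 863 in Radiation and 815 against 619 in Drug_Radiation. Its difference with radiation was 0.25 ± 0.04 (SE), and 0.23 at matched depth, and it was not called without Control (0.19). HMOX1, a heme oxygenase of the NRF2 list, rose most in Drug_Radiation, at 50 CPM against 25.8. Its difference of 0.53 was not called without that library (0.08) or without Drug (1.02).

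**Figure D5:**
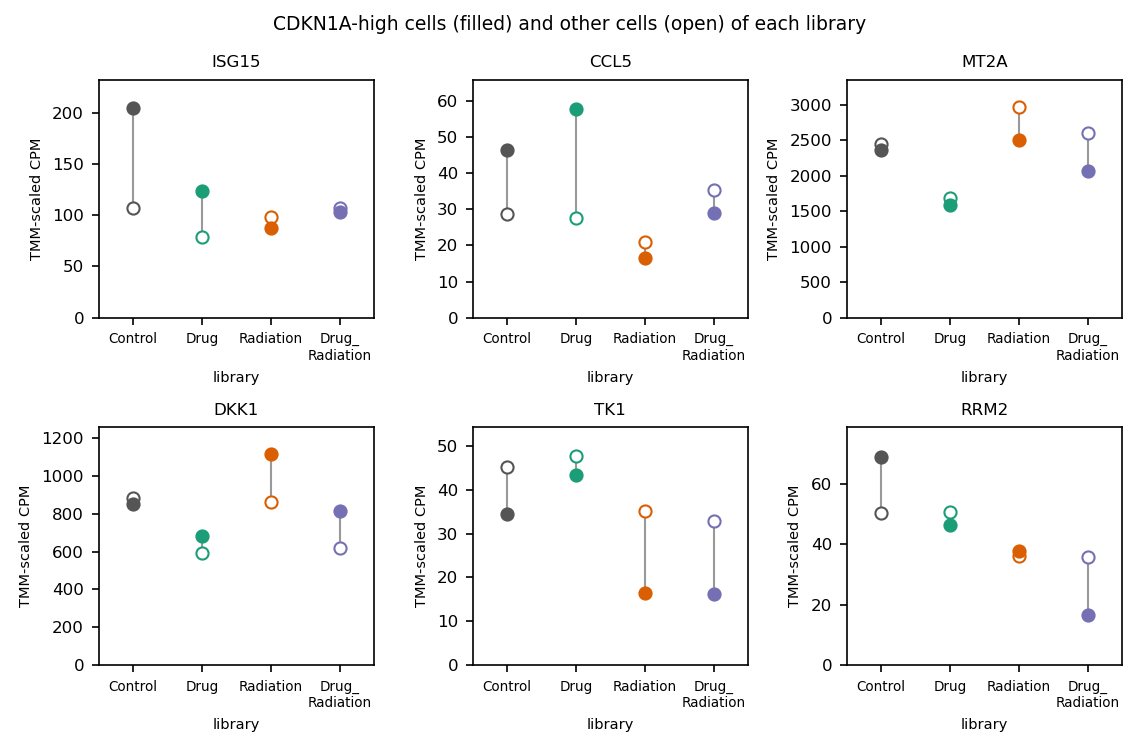
TMM-scaled CPM (y axis, from 0) of 6 genes whose comparison differed with radiation, by library (x axis), with filled points for CDKN1A-high cells and open points for other cells of the same library. ISG15 and CCL5 stand above the other cells in Control and Drug only, and TK1 falls to 16.5 and 16.2 CPM in the irradiated libraries.

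With QTP the comparison differed for 1 gene (0.0205%), and 269 genes had an unadjusted p under 0.05. NR1D2, a nuclear receptor of the circadian clock, had 22.6 and 43.2 CPM in CDKN1A-high cells of Control and Radiation against 19.9 and 24.1 CPM, and 22.5 and 24.4 CPM in Drug and Drug_Radiation against 31.3 and 31.9 CPM. The difference was -1.09 ± 0.20 (SE) with an adjusted p of 0.0176 by edgeR, -1.17 at matched depth, and -0.61 without Radiation, where it was not called. HS1BP3 (0.75), NKIRAS2 (0.85), DYNC2LI1 (0.57), PTX3 (-0.32) and SLPI (-0.51) came next and did not pass. Cells with QTP carried several times the UMIs of cells without it, so QTP and depth cannot be told apart in this test.

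CDKN1A-high cells also showed more distinct genes and slightly more mitochondrial RNA. At 1000 UMIs the median cell had 526, 570.5, 637 and 584 genes against 505, 554, 617 and 572, higher in 4 of 4 libraries (p = 0.13, two-sided exact sign-flip permutation test). The part of the lower ribosomal protein share in this was not tested. The median mitochondrial share was 3.38%, 3.75%, 4.08% and 5.28% against 3.15%, 3.51%, 4% and 5.16%, on average 0.167 percentage points higher in 4 of 4 libraries (p = 0.13, two-sided exact sign-flip permutation test).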

How the data were processed

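The authors deposited unnormalized UMI counts by gene and barcode (37468 features, 4 libraries of 3184, 2428, 3806 and 7006 barcodes). The submitters' processing notes name hg38 and Seurat 4.3.3 without a role. Per the labels' protocols the kit was PIPseq V T2 3′, while another label names 10x Genomics. Aligner, counting, strand and barcode calling were not stated. No doublet caller was run, and an alternative leaves out the 5% deepest cells. Counts were summed by library and class (8 sums, of 976531 to 15285559 UMIs in CDKN1A-high cells), without CDKN1A and mitochondrial genes. They were tested with edgeR 4.0.16 (quasi-likelihood, TMM, library as block) on genes with a mean library CPM of at least 20, with Benjamini-Hochberg adjustment at 0.05. Residual degrees of freedom were 3, and 2 for differences with radiation or QTP. Counting intervals by library are exact 95% binomial ones and cover counting error only. Simulated data for 4880 genes used Poisson counts with small added variation between sums, and no cells were chosen by a gene. There, 100% of 1.5-fold and 2-fold changes and 0.150% of unchanged genes were called. Some genes varied more between the real libraries, so these shares need not hold for the real data. Alternatives used limma 3.58.1 and DESeq2 1.42.0. The class, the 32 gene lists and the rules were chosen with earlier results of these data known. Genes named by rule were the 12 highest and 12 lowest called genes of 1 sign in 4 libraries, the 2 largest called and the most abundant of each list, a fixed set of p53 and cell cycle genes, and the 3 smallest p-values on each side of each difference. Other genes illustrate a list and were chosen after their values were seen. Gene positions come from GENCODE 29 and promoters from RefSeq. Some genes are not reported here.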

Additional observations from a re-analysis of the deposited data

Results flagged for a closer look

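The comparison of CDKN1A-high with other cells differed between libraries with and without radiation, by edgeR's test of class by radiation, for 18 named genes (log2 difference with radiation minus without). It was lower with radiation for CCL5 (-1.31), TK1 (-0.86), NPPB (-0.86), RRM2 (-0.85), ISG15 (-0.77), CDKN3 (-0.64), MCM4 (-0.63), CDC20 (-0.50), MT1X (-0.35), LOX (-0.28) and MT2A (-0.22). It was higher for HMOX1 (0.53), DKK1 (0.25), RPS24 (0.12), RPS29 (0.11), S100A6 (0.11), RPL37A (0.092) and RPS21 (0.085). BIRC5, named beside its list in the report, was also lower with radiation (-0.57). At matched depth BIRC5, CDC20, MCM4, LOX, MT1X, CCL5, S100A6 and the 4 ribosomal protein genes were not called. NPPB, the natriuretic peptide B gene, had 70.2 CPM in CDKN1A-high cells of Control against 23.9 CPM, and 16.5, 40.5 and 24.1 CPM against 26.2, 33.8 and 31.8 CPM in Radiation, Drug and Drug_Radiation. MT2A, a metallothionein, was 2498 CPM against 2974 CPM in Radiation and 2067 against 2606 in Drug_Radiation, with smaller gaps in Control (2361 against 2446) and Drug (1581 against 1682), and was called under each alternative tried for it. With QTP the comparison differed for NR1D2 (-1.09). Several of these calls were lost when 1 library was left out: LOX without each library in turn, CDC20, MCM4 and CDKN3 without Radiation, Drug or Drug_Radiation, MT1X and HMOX1 without Drug or Drug_Radiation, TK1 likewise, NPPB and RRM2 without Drug_Radiation, and DKK1, S100A6 and the 4 ribosomal protein genes without Control. RPS21 also lost its call without Drug and without Drug_Radiation. Without Drug_Radiation the difference was -0.27 for CDKN3, -0.11 for LOX, -0.07 for MT1X and -1.17 for NPPB. With total UMIs and no TMM S100A6, HMOX1 and the 4 ribosomal protein genes were not called.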

How the results depend on the processing

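Of 92 named called genes, 88 kept their call with RLE scaling, 92 with limma-voom, 78 with DESeq2, 82 at matched depth, 79 without Drug, 37 with cells thinned to 1000 UMIs and 0 without the library block. The main test is paired, since both sums of a library share its block. Treatments are not paired with each other, as the labels give no replicate numbers. Depth limits Control most, where CDKN1A-high cells held 976531 UMIs in all.

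Of all genes, 696 were called higher and 799 lower. With total UMIs and no TMM these were 1278 and 417, with DESeq2 249 and 367, with no filter 451 and 1304, without the library block 0 and 0, for the top 5% 462 and 510, at matched depth 414 and 517, and thinned to 1000 UMIs 59 and 132. Leaving out 1 library gave 290 to 734 higher and 434 to 882 lower, lowest without Drug. The matched-depth counts became 815 and 287 with total UMIs, and 192 to 442 and 281 to 547 with 1 library left out. The 60 genes that differed with radiation became 14 at matched depth, 26 with total UMIs and 18 to 54 with 1 library left out, and the 1 gene with QTP became 4 at matched depth and 1 to 9.

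Without the library block 0 genes of any list were called. Thinning left 12 of 35 p53 targets, 0 of 18 S phase genes, 6 of 19 G2 and M genes, 3 of 16 hypoxia genes and 3 of 20 lysosomal genes, where fewer UMIs entered the sums. DESeq2 called 11 S phase genes. With a minimum of 5 CPM 32 S phase and 46 G2 and M genes were lower, and with no filter 39 and 52, where more genes were tested. With no filter 9 lysosomal genes were higher. Leaving out 1 library gave 30 to 34 p53 targets, 9 to 18 S phase genes, 16 to 19 G2 and M genes, 11 to 16 hypoxia genes and 13 to 21 lysosomal genes.

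Some values changed sign, and the cause was not tested. Among called values, CCL5 turned to -0.18 without Drug (up to 0.87 without Drug_Radiation), the radiation difference of RRM2 to 0.0998 without Drug_Radiation (down to -1.39 without Drug), FSTL1 to -0.032 and FDFT1 to 0.0070 when thinned, and MALAT1 to -0.015 for the top 20%. The rest were near 0 and not called. With total UMIs CDK4 was 0.033, MYC 0.026, VIM 0.019 and ATF4 0.0044. MYC was 0.060 for the top 5% and 0.0055 ranked within depth groups. When thinned, ATF4 was 0.0017, PPIB -0.0060, IFITM3 -0.0099 and CCND1 -0.0040. With RLE PPIB was -0.0044 and HSP90AB1 -0.0046, with DESeq2 -0.0023 and -0.0036, with a minimum of 5 CPM -0.0031 and -0.0040, with no filter -0.051 and -0.052, and without the library block -0.0043 and -0.0029. With no filter IFITM3 was -0.031, TIMP1 -0.039 and CD68 -0.019. HSP90AB1 was -0.011 for the top 20%, -0.0021 with a mitochondrial limit of 10% and -0.00018 without the 5% deepest cells. TIMP1 was -0.028 for the top 5%. CD68 was -0.021 ranked within depth groups and -0.0047 ranked over nuclear-encoded UMIs. Leaving out 1 library gave PPIB -0.0092 without Radiation and -0.00047 without Drug_Radiation (up to 0.013), HSP90AB1 -0.0016 without Control and -0.013 without Drug_Radiation (up to 0.018), TIMP1 -0.0035 without Control and -0.00030 without Radiation (up to 0.028), and CD68 -0.0097 without Drug (up to 0.039).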

Other observations

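Replication-type histone genes, whose RNA mostly lacks a poly(A) tail, went against the S phase list as a sum, though not gene by gene. None of the 36 reached 20 CPM, but their sum was 126, 87.9, 144 and 140 CPM in CDKN1A-high cells of Control, Radiation, Drug and Drug_Radiation and 76.2, 61.8, 84.7 and 93.0 CPM in the other cells, on 106, 128, 1739 and 2108 UMIs against 506, 751, 7535 and 11904. With the threshold at 5 CPM, 4 were tested and 3 were called higher. The linker histone H1-2 rose by 0.94 ± 0.09 (SE, log2), H2AC6 by 0.92 ± 0.07 and H2BC5 by 0.83 ± 0.07, each in 4 of 4 libraries, by edgeR's quasi-likelihood test. These 3 genes made up much of the sum, with 300, 363 and 395 of the 1739 UMIs in CDKN1A-high cells of Drug. H4C3 did not pass (-0.03), with 21.4, 6.86, 21.8 and 17.5 CPM against 26.2, 13.1, 21.9 and 17.1 CPM.

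By chromosome, and with ribosomal protein genes left out, 51 of 231 tested genes of chromosome 6 were called higher (22.1%) and 55 of 260 of chromosome 11 (21.2%), against 14.5% of all and 7.50% of 160 on chromosome 10. These chromosomes had the highest shares and the lowest, and were named after all shares were seen. No test was made of the differences between chromosomes.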
